A study of Mus musculus with 8 samples.

Results

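Differentiated 3T3-L1 cells were compared with the same cells during clonal expansion, the burst of gene activity and cell cycle entry that precedes fat cell formation. 3T3-L1 is a mouse fibroblast-like line, derived from Swiss albino mice, whose cells turn into fat cells when given hormones. The 2 differentiation libraries were made from RNA taken 6 days after the adipogenic cocktail was added, and the 2 clonal expansion libraries from RNA taken 10 h after it. The other stages of the series were proliferation and quiescence (48 h at confluence), again with 2 libraries each, so that 4 of the 8 libraries belong to this comparison. The cocktail, which both stages had received, was 5 µg/µl insulin (as labelled), 1 µM dexamethasone, a glucocorticoid, and 0.25 mM isobutylmethylxanthine, an inhibitor of phosphodiesterases that raises cyclic AMP. It was given for 48 h and followed by insulin alone, so at 10 h the cells were in the full cocktail and at day 6 they were not. Stage, time and the presence of dexamethasone and isobutylmethylxanthine therefore cannot be told apart here. Libraries are numbered as experiments 1 and 2, with no statement that each was a culture of its own. The p-values therefore rest on the spread between the libraries of a stage, and that spread may be technical.

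In the textbook account of this line, the cocktail first raises C/EBP-beta and C/EBP-delta, the growth-arrested cells re-enter the cell cycle, and PPAR-gamma and C/EBP-alpha then switch on the genes of the mature fat cell. A mature fat cell takes up glucose and fatty acids, stores them as triglyceride in a droplet coated by perilipins, releases them again through lipases under hormonal control, and secretes hormones such as adiponectin and leptin.

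Each value is a pseudo-count, the reads of a gene after the authors' adjustment for library size. These values are not divided by gene length, so each fold change compares 1 gene between stages. Sums and rankings over several genes weigh longer transcripts more. They summed to 148552972 and 149542130 over the differentiation libraries, against 151529060 and 146570940 over the clonal expansion libraries. The totals were lower in quiescent cells (127369893 and 125893531) and in proliferating cells (122413485 and 123940067), and values of those stages are given as a description. Of 22798 genes in the table, 14647 averaged 10 or more across the 8 libraries and were tested on log2(value + 1). The log2 fold change (log2FC, given with its standard error) is differentiation over clonal expansion, and it understates the change of genes with low values. Where only a value with ± is given in brackets, it is that log2FC and its standard error. The 2 libraries of a stage had a correlation of 0.996 across genes in both stages, and differed by a median of 0.129 (differentiation) and 0.128 (clonal expansion) on the log2 scale. The stage means differed by a median of 0.797.

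Most of the measured transcriptome differed between the stages, in similar numbers up and down, and more of the large changes were rises. At an adjusted p under 0.05, 10694 genes changed, or 73% of those tested. Of these, 5390 were higher in differentiated cells (36.8% of genes tested) and 5304 were lower (36.2%). In 88.4% of genes tested, both libraries of one stage lay above both of the other, so a lack of overlap, where given below, was the common case. A change of at least 2-fold was seen in 3413 genes that rose and 2715 that fell, a change of at least 4-fold in 1683 and 889, and one of at least 16-fold in 581 and 145. The median log2FC of all genes tested was 0 to 2 decimals, and the smallest change called was 0.21. Because so many genes changed, the share of a gene list that rose or fell is read below against 36.8% and 36.2%.

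**Figure D1:**
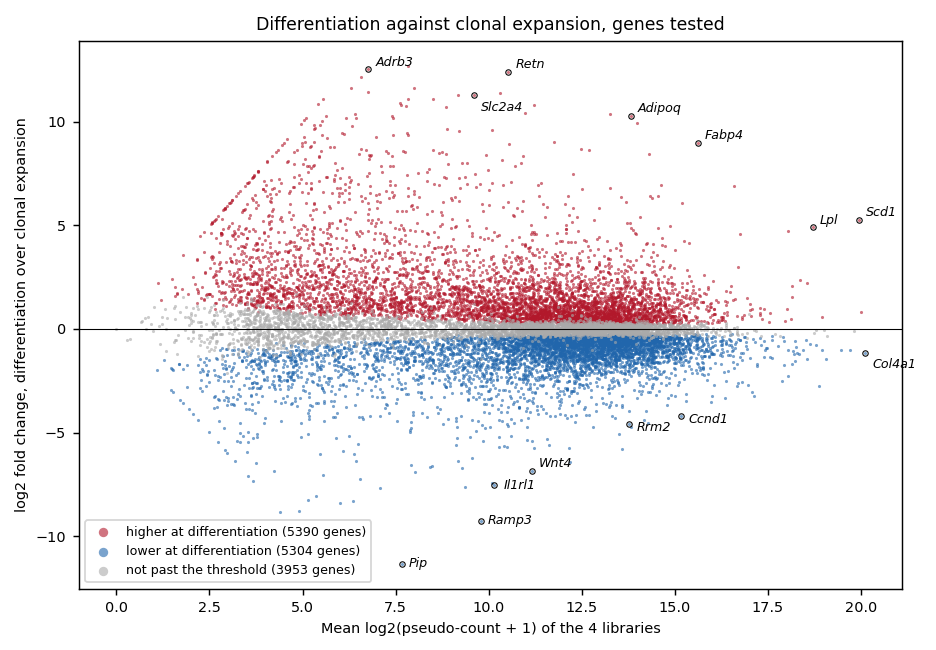
Each point is a gene tested. The x axis is the mean log2(pseudo-count + 1) of the 2 differentiation and 2 clonal expansion libraries, and the y axis the log2 fold change of differentiation over clonal expansion. Red points (5390) were higher and blue points (5304) lower at an adjusted p under 0.05. The highest points, such as Adrb3 and Retn, lie above 12, the lowest is Pip at -11.33, and the slanted upper left edge holds genes at or near 0 at clonal expansion.

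Marker genes of the stages are given next. They were chosen with earlier results of these data known, so they are no independent check of the labels. All 18 adipocyte markers written down were tested and all 18 rose, with log2FC from 3.83 (Pparg) to 12.54 (Adrb3) and a median of 8.54. Adipoq, the hormone adiponectin, had 485712 and 532404 in differentiated cells, against 397 and 422 at clonal expansion (log2FC 10.28 ± 0.21, adjusted p = 4.93e-10). Fabp4, the fatty acid carrier of the fat cell, had 1145776 and 1095174 in differentiated cells, against 2115 and 2351 at clonal expansion (log2FC 8.97 ± 0.14, adjusted p = 3.12e-10). Of 16 fibroblast and preadipocyte markers, 10 fell and 2 rose, with a median of -1.01. Dlk1, also called Pref-1, a surface protein of preadipocytes that restrains fat cell formation, had 43216 and 51599 in differentiated cells, against 466642 and 415846 at clonal expansion (-3.22 ± 0.16). Ly6a, the stem cell antigen Sca-1, had 3050.3 and 3060.1 in differentiated cells, against 43134 and 35508 at clonal expansion (-3.68 ± 0.17). In both genes the 2 stages did not overlap. Fibroblast genes stayed abundant at day 6: Col1a2 had 556287 and 659899.7 in differentiated cells, against 1324828 and 1130844 at clonal expansion (-1.01 ± 0.18) and Pdgfrb, a receptor of platelet-derived growth factor, rose (18414 and 22868 at differentiation and 13078 and 10563 at clonal expansion, 0.80 ± 0.14). In a bulk sample, fewer undifferentiated cells and less RNA per cell cannot be told apart.

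**Figure D2:**
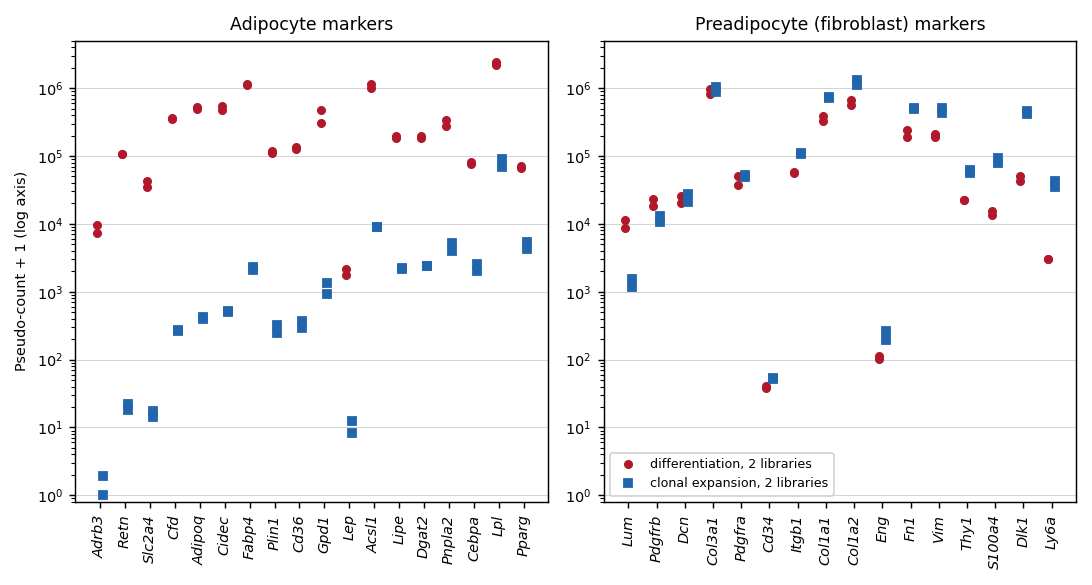
Pseudo-counts + 1 on a log axis for each marker, in the 2 differentiation libraries (red circles) and the 2 clonal expansion libraries (blue squares), with genes ordered by fold change. Every adipocyte marker lies higher at differentiation, and the fibroblast markers range from Lum, at 2.90 on the log2 scale, to Ly6a, at -3.68.

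Markers of other cell types were taken for macrophages and blood, endothelium, epithelium, muscle and bone, and 34 of the 75 in the table were below 10 in all 4 libraries. The 17 macrophage and blood markers in the table summed to 1536 and 1465 at differentiation and 4757 and 3549 at clonal expansion, and 0 rose and 5 fell of 8 tested. Most of that sum came from Lyz2 (408 and 376 at differentiation and 2031 and 1314 at clonal expansion), Cd14 (513 and 469 at differentiation and 1838 and 1412 at clonal expansion) and Cd68 (299 and 304 at differentiation and 402 and 387 at clonal expansion), while Ptprc, Cd3e and Hba-a1 were listed at 0 to 2 decimals in the 4 libraries. The 12 endothelial markers summed to 2153 and 1763 at differentiation and 1933 and 1864 at clonal expansion, and 3 rose and 2 fell of 7 tested. Most of that sum was Flt1 (1545 and 1186 at differentiation and 1299 and 1306 at clonal expansion) and Egfl7 (389 and 405 at differentiation and 241 and 218 at clonal expansion). Pecam1 had 109 and 95.9 at differentiation and 50.5 and 53.8 at clonal expansion, Cdh5 had 27.3 and 17.6 at differentiation and 236 and 196 at clonal expansion, and Tie1 was listed at 0. The 15 muscle markers summed to 7044 and 6760 at differentiation and 566 and 561 at clonal expansion, at differentiation mostly Des (desmin) and Mb (myoglobin), while the muscle regulators Myod1 and Myog were at 2.05 or less. Of these, 3 rose and 1 fell of 7 tested. The 17 bone and cartilage markers summed to 11779 and 10451 at differentiation and 22741 and 21056 at clonal expansion, and 6 rose and 3 fell of 11 tested. The median log2FC of those tested was 1.45, although the sum was lower at differentiation. Among the more abundant members, Sox9 had 1869 and 2229 at differentiation and 7201 and 7496 at clonal expansion. Alpl had 2078 and 2153 at differentiation and 6513 and 5349 at clonal expansion. Several less abundant members went the other way. Comp had 650 and 534 at differentiation and 46.0 and 49.7 at clonal expansion, and Lect1 had 71.2 and 87.7 at differentiation and 10.4 and 6.86 at clonal expansion. The 14 epithelial markers summed to 3304 and 1542 at differentiation and 8535 and 10278 at clonal expansion, and 4 rose and 2 fell of 7 tested. That sum was mostly Krt18 at differentiation (1711 and 801 at differentiation and 0.95 and 0.0221 at clonal expansion) and Krt15 at clonal expansion (244 and 118 at differentiation and 8095 and 9777 at clonal expansion), with Epcam listed at 0. Their part in the results below was not tested.

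The transcription factors of the fat cell rose as a group. Of 25 written, all were tested, 22 rose and 0 fell, with a median log2FC of 1.83. Pparg, the lead nuclear receptor of fat cell formation, had 71292 and 65599 in differentiated cells, against 5392 and 4295 at clonal expansion (log2FC 3.83 ± 0.13, adjusted p = 6.34e-09), a 14.2-fold difference. Cebpa, which acts with it, had 76421 and 80355 in differentiated cells, against 2577 and 2018 at clonal expansion (log2FC 5.10 ± 0.16, adjusted p = 4.31e-09). Pparg at clonal expansion was slightly below its values in quiescent cells, 6455 and 5884, and Cebpa was below its own, 4576 and 3867. Larger rises were seen in factors of lipid and glucose metabolism. Klf15, a zinc finger factor that acts on glucose transporter and amino acid genes, had 19755 and 17929 in differentiated cells, against 11.1 and 9.62 at clonal expansion (10.70 ± 0.34). Mlxipl, which encodes the glucose-sensing factor ChREBP, had 2406 and 2618 in differentiated cells, against 8.88 and 10.5 at clonal expansion (7.88 ± 0.34). Both had at most 11.1 at clonal expansion. Thrsp, or Spot 14, a nuclear protein tied to lipid synthesis, had 87244 and 119623 in differentiated cells, against 47.6 and 64.6 at clonal expansion (10.82 ± 0.32). Rxrg, a partner receptor of PPAR-gamma, had 597 and 829 in differentiated cells, against 0.95 and 0.0221 at clonal expansion, and its log2FC of 8.96 depends on the pseudocount. Nr1h3, the oxysterol receptor LXR-alpha, rose as well (23005 and 23727 at differentiation and 403 and 388 at clonal expansion, 5.88 ± 0.15), as did Srebf1, the sterol-regulated factor of lipid synthesis, by less (24285 and 27084 at differentiation and 12303 and 11056 at clonal expansion, 1.14 ± 0.10).

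The early factors split. Of 21 written and tested, 8 rose (38.1%) and 9 fell (42.9%), against 36.8% and 36.2% of all genes tested. Cebpb was lower at day 6 (12069 and 11480.5 in differentiated cells, against 27886 and 21541 at clonal expansion, log2FC -1.06 ± 0.16, adjusted p = 0.000151), and so was Cebpd (4977 and 4062 in differentiated cells, against 13804 and 12002 at clonal expansion, -1.52 ± 0.14). Cebpb at day 6 was still above its quiescent values of 5478 and 4051. Junb, a subunit of the AP-1 factor, had 1710.4 and 1643 in differentiated cells, against 23217 and 22624 at clonal expansion (-3.77 ± 0.50). Klf5, which acts early with the C/EBP factors, had 572 and 679 in differentiated cells, against 5635 and 6852 at clonal expansion (-3.32 ± 0.17). Zfp467 and Egr2 (Krox20) went the other way. Zfp467 had 5665 and 5654 in differentiated cells, against 247 and 264 at clonal expansion (4.47 ± 0.10). Egr2 had 3117 and 1788 in differentiated cells, against 165 and 169.9 at clonal expansion (3.81 ± 0.77).

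Inhibitors of fat cell formation were mainly lower. Of 33 tested among 34 written, 20 fell and 6 rose (3 with no filter on low values), with a median of -1.26. The largest falls were those of Id2, Id4 and Id3, which bind and block helix-loop-helix factors. Id2 had 148 and 261 in differentiated cells, against 10650.2 and 9998 at clonal expansion (log2FC -5.71 ± 0.23, adjusted p = 1.54e-08). Id3 had 1009.9 and 989 in differentiated cells, against 20961 and 18425 at clonal expansion (-4.30 ± 0.15). Id4 had 256 and 302 in differentiated cells, against 6282 and 5988 at clonal expansion (-4.46 ± 0.14). For these 3 genes the stages were far apart and did not overlap. Gata2, a zinc finger factor of preadipocytes, also fell (198 and 300.4 at differentiation and 1443 and 1599.5 at clonal expansion, -2.64 ± 0.18), while Gata3 was not called (204 and 159 at differentiation and 139 and 140.4 at clonal expansion, adjusted p = 0.0872, 95% interval of the log2FC -0.03 to 0.75). The largest riser on the list was Ddit3, the stress factor CHOP, with 19217 and 10561 in differentiated cells, against 2330.2 and 2243 at clonal expansion (2.64 ± 0.23).

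Genes of lipid supply and synthesis took a large share of the library at day 6. Scd1, the desaturase that makes monounsaturated fatty acids, held 4.22% and 4.20% of all pseudo-counts in the differentiation libraries, against 0.114% and 0.106% in the clonal expansion libraries (log2FC 5.26 ± 0.11, adjusted p = 5.63e-10). Lpl, the lipase that frees fatty acids from lipoproteins, held 1.49% and 1.64% at differentiation, against 0.0589% and 0.0463% at clonal expansion (4.91 ± 0.15). In all, the 10 genes with the most pseudo-counts held 11.0% and 11.6% of the differentiation libraries and 6.67% and 6.53% of the clonal expansion libraries. At differentiation these 10 were Scd1, Lpl, C3, Col6a3, Fabp4, Acsl1, Col3a1, Scd2, Fasn and Col4a1. At clonal expansion the first were Col4a1, Vcan, Col1a2 and Col4a2, all matrix genes. Longer transcripts weigh more in this ranking. Reads of Scd1 may be split with those of its close relatives, so its value is uncertain to that extent.

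Of the 19 droplet genes tested among 20 written, 16 rose. Plin1, the perilipin that coats fat cell droplets, had 109812 and 119876 in differentiated cells, against 246 and 319 at clonal expansion (log2FC 8.67 ± 0.17, adjusted p = 4.93e-10). Cidec, which fuses droplets, had 476118 and 550539 in differentiated cells, against 509 and 522 at clonal expansion (9.95 ± 0.29). Cidea, a relative of Cidec, had 706 and 486 in differentiated cells, against 1.89 and 1.24 at clonal expansion (7.85 ± 0.50). In these 3 genes both differentiation libraries stood above both clonal expansion libraries. Plin2, the droplet protein of most cell types, rose by less (80454 and 77545 in differentiated cells, against 3549 and 2981 at clonal expansion, 4.60 ± 0.13). Of the other 3, Rab18 and Pcyt1a were not called, and Plin5, a perilipin of oxidative tissues, was low and fell (33.1 and 37.9 in differentiated cells, against 77.7 and 131 at clonal expansion, log2FC -1.48 ± 0.52, adjusted p = 0.0247). That call was lost on leaving out either differentiation library or the second clonal expansion library, and with no filter on low values.

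Lipases and their regulators rose with the droplet proteins, 16 of 17 tested (median 4.91). Pnpla2, the lipase ATGL that starts triglyceride breakdown, had 278915 and 335529 in differentiated cells, against 5170.2 and 4008 at clonal expansion (log2FC 6.07 ± 0.17, adjusted p = 2.42e-09). Lipe, hormone-sensitive lipase, had 185158 and 199376 in differentiated cells, against 2255 and 2194 at clonal expansion (6.43 ± 0.11). Mgll, which takes the last step, had 9079 and 12395 in differentiated cells, against 66 and 51.7 at clonal expansion (7.48 ± 0.26). The lipases for the successive steps were thus higher at day 6, with no overlap between the stages. G0s2, the inhibitor of ATGL, rose more than these lipases (84939 and 64360 in differentiated cells, against 34.5 and 82.5 at clonal expansion, 10.41 ± 0.37). Aqp7, the channel through which glycerol leaves, had 3970.5 and 5112 in differentiated cells, against 34.1 and 14.5 at clonal expansion (7.60 ± 0.37). Ces2e, a carboxylesterase, was the member that fell (28.5 and 41.1 in differentiated cells, against 267 and 266 at clonal expansion, -2.92 ± 0.21).

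Fatty acid synthesis rose in 22 of 25 genes. Fasn, fatty acid synthase, had 720036 and 830343 in differentiated cells, against 148765 and 148015 at clonal expansion (log2FC 2.38 ± 0.11, adjusted p = 5.16e-08). Acacb, an acetyl-CoA carboxylase, had 9009 and 8398 in differentiated cells, against 787 and 776 at clonal expansion (3.47 ± 0.14). Acly, which supplies cytosolic acetyl-CoA, was already high at 10 h and rose little (91057 and 104547 in differentiated cells, against 66265 and 65141 at clonal expansion, 0.57 ± 0.10). The elongases split. Elovl3, known from brown fat and skin, had 2533 and 1751 in differentiated cells, against 6.83 and 9.33 at clonal expansion (7.87 ± 0.46), whereas Elovl6 fell (3524 and 4356 in differentiated cells, against 6212 and 7182 at clonal expansion, -0.77 ± 0.20) and so did Elovl5 (15938 and 14678 in differentiated cells, against 22318 and 21662 at clonal expansion, -0.52 ± 0.09). The fall of Elovl6 was not called without the first differentiation library.

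Triglyceride assembly rose in 15 of 21 genes and fell in 2. Dgat2, which adds the last fatty acid, had 185361 and 199342 in differentiated cells, against 2391 and 2364 at clonal expansion (log2FC 6.34 ± 0.11, adjusted p = 4.93e-10). Gpd1, which makes the glycerol backbone from a glycolytic intermediate, had 304978 and 471532 in differentiated cells, against 911 and 1325 at clonal expansion (8.43 ± 0.22). Pck1, which makes the backbone without glucose, had 14108 and 12407 in differentiated cells, against 15.1 and 16.1 at clonal expansion (9.64 ± 0.31). The stages did not overlap in these 3 genes, although Gpd1 differed between its own differentiation libraries. Mogat1 had 207 and 212 in differentiated cells, against 0.935 and 1.2 at clonal expansion and belongs to an alternative route from monoacylglycerol. Agpat9, a glycerol phosphate acyltransferase, rose (24626 and 23481 in differentiated cells, against 278 and 291 at clonal expansion, 6.40 ± 0.14), while Agpat4 (-0.74 ± 0.15) and Agpat5 (-0.84 ± 0.10) fell.

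Uptake and activation of fatty acids was more mixed, with 13 of 21 tested genes up and 6 down. Cd36, a fatty acid translocase, had 135907 and 127291 in differentiated cells, against 294 and 365 at clonal expansion (log2FC 8.65 ± 0.19, adjusted p = 7e-10). Acsl1, the main acyl-CoA synthetase of fat, had 1009189 and 1167504 in differentiated cells, against 9085 and 8934 at clonal expansion (6.91 ± 0.14), but its relatives Acsl4 (14482 and 11323 in differentiated cells, against 53466 and 53351 at clonal expansion, -2.06 ± 0.14) and Acsl5 (5052 and 5358 in differentiated cells, against 17979 and 15766 at clonal expansion, -1.69 ± 0.12) fell. The lipoprotein receptor Lrp1 fell too (154830.5 and 169278 in differentiated cells, against 497496 and 542592 at clonal expansion, -1.68 ± 0.16).

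Hormones and secreted proteins of the fat cell rose in 21 of 32 tested genes and fell in 10. Retn, or resistin, had 108747 and 108875 in differentiated cells, against 17.1 and 20.8 at clonal expansion (log2FC 12.42 ± 0.37, adjusted p = 3.3e-09). Cfd, adipsin, a complement protease secreted by fat cells, had 365917 and 350608 in differentiated cells, against 266 and 273 at clonal expansion (10.37 ± 0.36). Lep, leptin, was low at 10 h (1784 and 2162 in differentiated cells, against 11.4 and 7.34 at clonal expansion, 7.60 ± 0.39). The pair of libraries at day 6 lay close together for Retn and Cfd. Agt, angiotensinogen, had 142408 and 117407 in differentiated cells, against 4873 and 4059 at clonal expansion (4.86 ± 0.23). Nampt had 75047 and 58890.3 in differentiated cells, against 14547 and 13822 at clonal expansion (2.23 ± 0.13). Among those that fell are genes known from inflammation. Ccl2, a chemokine, had 282 and 263 in differentiated cells, against 6259 and 5158 at clonal expansion (-4.38 ± 0.19). Il6 had 24.4 and 25.7 in differentiated cells, against 505 and 463 at clonal expansion (-4.22 ± 0.41). Both cytokines were lower in both differentiation libraries. Saa3, an acute-phase protein, had 127 and 155 in differentiated cells, against 1514 and 1257 at clonal expansion (-3.29 ± 0.40). Rbp4, the retinol carrier, averaged 6.70 over the 8 libraries and so was left untested. It had 41.8 and 11.8 in differentiated cells and was listed at 0 to 2 decimals at clonal expansion.

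Several receptors of the fat cell were close to 0 at clonal expansion and abundant at day 6. Of 29 tested among 34 written, 21 rose and 7 fell. Adrb3, the beta-3 adrenergic receptor through which catecholamines trigger lipolysis, lies at mm9 chr8:28336248-28340060 and had 7322 and 9655 in differentiated cells, against 0.95 and 0.0221 at clonal expansion (log2FC 12.54 ± 0.39, adjusted p = 3.61e-09). Adrb1, already present at 10 h, had 186 and 137 in differentiated cells, against 68.8 and 66.9 at clonal expansion (1.22 ± 0.24), a rise not called under quantile normalization. Adrb3 and Adrb1 were each higher in both differentiation libraries. Receptors known to restrain lipolysis rose as well. Gpr81, the lactate receptor, had 14071 and 14639.9 in differentiated cells, against 4.74 and 2.5 at clonal expansion (11.65 ± 0.37). Adora1, an adenosine receptor, had 863 and 855 in differentiated cells, against 4.21 and 2.48 at clonal expansion (7.66 ± 0.44). O3far1, the receptor for long-chain fatty acids named Ffar4 in RefSeq, had 13730.5 and 8101 in differentiated cells, against 5.69 and 2.53 at clonal expansion (11.08 ± 0.47). Tshr, the thyrotropin receptor, had 4755 and 6739 in differentiated cells, against 0.935 and 1.2 at clonal expansion (11.42 ± 0.47). Adrb3, Gpr81, O3far1 and Tshr had at most 5.69 pseudo-counts in the clonal expansion libraries, so their log2FC depends on the pseudocount. Of the 7 receptors that fell, 3 bind sphingosine 1-phosphate. S1pr1 had 592 and 574 in differentiated cells, against 5961 and 5465 at clonal expansion (-3.29 ± 0.11). S1pr2 had 2098 and 3226 in differentiated cells, against 11758 and 11406 at clonal expansion (-2.15 ± 0.17). S1pr3 had 6939.6 and 6836 in differentiated cells, against 21582 and 17689 at clonal expansion (-1.50 ± 0.11).

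Genes of the insulin response rose in 25 of 34 tested, with 5 down. Slc2a4, the insulin-responsive glucose transporter GLUT4, had 43082 and 35414 in differentiated cells, against 13.1 and 16.2 at clonal expansion (log2FC 11.29 ± 0.22, adjusted p = 4.93e-10). Slc2a1, the transporter of most cells, had 29009 and 20535 in differentiated cells, against 16323 and 14356 at clonal expansion (0.67 ± 0.15). Sort1 and Tusc5, proteins of the vesicles that carry GLUT4, rose as well. Sort1 had 56171 and 65267 in differentiated cells, against 579.6 and 545 at clonal expansion (6.75 ± 0.15). Tusc5 had 17184 and 12692 in differentiated cells, against 141 and 98.6 at clonal expansion (6.95 ± 0.23). Each of these vesicle proteins was higher in both differentiation libraries. Insr, the insulin receptor, had 39699 and 41238 in differentiated cells, against 7818 and 9005 at clonal expansion (2.27 ± 0.15). Irs1 had 21544 and 27825 in differentiated cells, against 3450.5 and 3868 at clonal expansion (2.74 ± 0.17). Irs2 had 14354 and 14948 in differentiated cells, against 7655 and 9287 at clonal expansion (0.80 ± 0.18). Irs1 at day 6 overlapped its quiescent values of 22830 and 31601. Against the direction of the list, Akt1, a kinase downstream of insulin, fell (26656 and 30045 in differentiated cells, against 93021 and 81889 at clonal expansion, -1.62 ± 0.12), and so did Grb14, an inhibitor of the receptor (1535 and 1364 in differentiated cells, against 5069.97 and 4418 at clonal expansion, -1.71 ± 0.16).

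Lep and Aqp7 are shown with the bases just before their start, because each holds a sequence that a regulator of fat cell genes is known to bind. The 250 bases before the first start listed per gene were searched on both strands for 7 motif families. TTGCGCAA, a site for C/EBP factors, was in 0.17% of the 27025 promoters of the RefSeq table (GRCm38.p6), and TGACCT, 1 repeat of the sites of nuclear receptors such as PPAR-gamma with RXR, in 13.8%. The last 150 bases before the start are printed 5′ to 3′ on the gene's strand, with the motif in capitals. The stretch shown for Lep is chr6:29060071-29060220 (plus strand) and its motif begins 55 bases before the start. The stretch shown for Aqp7 is chr4:41048137-41048286 (minus strand) and its motif begins 49 bases before the start.
Lep: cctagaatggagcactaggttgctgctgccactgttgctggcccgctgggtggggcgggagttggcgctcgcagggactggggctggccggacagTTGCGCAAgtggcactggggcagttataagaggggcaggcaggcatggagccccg
Aqp7: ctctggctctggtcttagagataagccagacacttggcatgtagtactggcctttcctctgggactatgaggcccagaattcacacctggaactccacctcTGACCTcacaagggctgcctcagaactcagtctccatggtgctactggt
The values of both genes at the 2 stages are given above. Among the 22 fat cell transcription factors with a promoter in the table, 13.6% held TGACCT and none TTGCGCAA, and a match in this window is a description, not a site shown to be bound.

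Oxidative metabolism rose broadly and by moderate amounts. Of 80 subunit genes of oxidative phosphorylation tested, 73 rose and 1 fell, with a median log2FC of 1.16. Ndufs1, a subunit of complex I, had 54057 and 51792 in differentiated cells, against 15133 and 13744 at clonal expansion (log2FC 1.88 ± 0.10, adjusted p = 8.93e-08). Uqcrfs1, a subunit of complex III, had 52326 and 50199 in differentiated cells, against 11969.9 and 10410.4 at clonal expansion (2.20 ± 0.13). The largest rises were the forms of cytochrome c oxidase subunits known from heart and muscle. Cox8b had 2051 and 2803 in differentiated cells, against 0.82 and 3.03 at clonal expansion (9.79 ± 0.46). Cox7a1 had 2776 and 2366 in differentiated cells, against 29.6 and 29.7 at clonal expansion (6.39 ± 0.28). Cox6a2 had 350.5 and 209 in differentiated cells, against 34.8 and 48.1 at clonal expansion (2.69 ± 0.31). The ubiquitous form Cox7a2 rose by 1.19 ± 0.14 on the same scale. Atp5g1, a subunit of the ATP synthase ring, was the member that fell (1970.2 and 2086 in differentiated cells, against 3010.1 and 3169 at clonal expansion, -0.61 ± 0.14).

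Citric acid cycle genes rose in 22 of 27 and fell in 4. Cs, citrate synthase, had 165057 and 173140.5 in differentiated cells, against 49700.3 and 49470.4 at clonal expansion (log2FC 1.77 ± 0.10, adjusted p = 1.68e-07). Pcx, pyruvate carboxylase, which refills the cycle and feeds lipid synthesis, had 529447 and 562247 in differentiated cells, against 24586 and 20884 at clonal expansion (4.59 ± 0.13). Of the isocitrate dehydrogenases, the cytosolic Idh1 rose (82647 and 81353 in differentiated cells, against 11648 and 9309 at clonal expansion, 2.98 ± 0.12) and Idh3a of the cycle rose (92717 and 85352 in differentiated cells, against 19424 and 18217 at clonal expansion, 2.24 ± 0.12), while the mitochondrial Idh2 fell (33296 and 32629.6 in differentiated cells, against 55525 and 51785 at clonal expansion, -0.70 ± 0.09).

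Fatty acid oxidation genes rose in 33 of 36, with a median of 2.42. The peroxisomal enzyme Ehhadh had 1498 and 2085 in differentiated cells, against 0.95 and 0.0221 at clonal expansion, and Acaa1b, another peroxisomal enzyme, had 1688 and 1952 in differentiated cells, against 9.65 and 18.8 at clonal expansion (6.97 ± 0.38). Crat, which moves acetyl groups onto carnitine, had 132289 and 112997 in differentiated cells, against 9048 and 8571 at clonal expansion (3.80 ± 0.13). Ehhadh, Acaa1b and Crat were each higher in both differentiation libraries. Cpt1a, the entry step for fatty acids into mitochondria, was not called (5686 and 6666 in differentiated cells, against 6019 and 5492 at clonal expansion, adjusted p = 0.457, 95% interval of the log2FC -0.16 to 0.36), whereas the muscle form Cpt1b was low and rose (66.6 and 69.1 in differentiated cells, against 12.2 and 14.9 at clonal expansion, 2.25 ± 0.29). Acot1, a thioesterase, was the member that fell (102 and 89.8 in differentiated cells, against 376 and 334 at clonal expansion, -1.88 ± 0.17).

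Breakdown of branched-chain amino acids rose in 27 of 28 genes (median 2.48). Bcat2, the mitochondrial transaminase that starts it, had 169986 and 166544 in differentiated cells, against 5617 and 5082 at clonal expansion (log2FC 4.98 ± 0.12, adjusted p = 8.95e-10). Its cytosolic relative Bcat1 was the member that fell (1073 and 1053 in differentiated cells, against 23661 and 24498 at clonal expansion, log2FC -4.50 ± 0.12, adjusted p = 2e-09). The mitochondrial and the cytosolic enzyme moved in opposite directions, each without overlap. Dbt, a subunit of the next enzyme complex, had 37225 and 32223 in differentiated cells, against 1795 and 1644 at clonal expansion (4.33 ± 0.12). Aldh6a1, of the valine branch, had 114812 and 108899 in differentiated cells, against 2757 and 2532 at clonal expansion (5.40 ± 0.13).

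Of 45 tested glycolysis, glycogen and pyruvate genes, 35 rose and 5 fell. Pygl, a glycogen phosphorylase known from liver, had 2759 and 3542 in differentiated cells, against 0 and 4.44 at clonal expansion. Ldhb had 40356 and 40906 in differentiated cells, against 2284 and 1974 at clonal expansion (4.26 ± 0.15), while Pkm2, the pyruvate kinase gene of most tissues, fell slightly (347775 and 282970.1 in differentiated cells, against 474292 and 436764 at clonal expansion, -0.54 ± 0.18). The Pkm2 call was lost without the second differentiation library, without the first clonal expansion library and under quantile normalization. Cholesterol synthesis and uptake genes rose in 26 of 34. Insig1, which restrains sterol synthesis, had 62386 and 39947 in differentiated cells, against 3053 and 2531 at clonal expansion (4.17 ± 0.19). Fdps, of the synthesis pathway itself, had 31539 and 27154 in differentiated cells, against 3471 and 2887 at clonal expansion (3.21 ± 0.14). Scarb1, the receptor for high density lipoprotein, had 41214 and 34008 in differentiated cells, against 1814 and 1620.1 at clonal expansion (4.45 ± 0.12).

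Genes used as marks of brown fat rose in 15 of 19 tested among 25 written and fell in 3. Ucp1, the uncoupling protein that defines brown fat, averaged 3.23 over the 8 libraries and so was left untested, with 11.5 and 7.24 in differentiated cells, against 1.87 and 2.38 at clonal expansion. Kcnk3, a potassium channel, had 24877 and 19736 in differentiated cells, against 66.1 and 88.6 at clonal expansion (8.16 ± 0.19). Dio2, which activates thyroid hormone, fell (16.9 and 20.6 in differentiated cells, against 224 and 306 at clonal expansion, -3.74 ± 0.47), and so did Ucp2 (44717 and 43655 in differentiated cells, against 67151 and 64692 at clonal expansion, -0.58 ± 0.12). Dio2 was low at day 6, whereas Ucp2 stayed abundant at both stages. The coactivators of mitochondrial genes rose. Ppargc1a had 2049.7 and 2059.5 in differentiated cells, against 149 and 135 at clonal expansion (3.85 ± 0.20). Ppargc1b had 7033 and 9502 in differentiated cells, against 105 and 153 at clonal expansion (6.00 ± 0.27). Their relative Pprc1 fell (7088 and 8829 in differentiated cells, against 32827 and 35553 at clonal expansion, -2.11 ± 0.12). Genes of mitochondrial biogenesis and protein import moved less as a list, with 18 of 45 up (40%), 6 down (13.3%) and a median of 0.12. The share up was near the 36.8% of all genes tested, and the share down was below their 36.2%.

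Genes of DNA synthesis were lower at day 6 almost throughout. Of 69 written and tested, 64 fell and 2 rose, with a median log2FC of -2.21. Rrm2, the ribonucleotide reductase subunit that supplies deoxynucleotides, had 2772 and 2974 in differentiated cells, against 70532 and 66055 at clonal expansion (log2FC -4.57 ± 0.20, adjusted p = 2.59e-08). Cdc6, which loads the replicative helicase, had 809 and 685 in differentiated cells, against 10474 and 10952 at clonal expansion (-3.84 ± 0.18). The helicase subunit Mcm5 had 3152 and 3542 in differentiated cells, against 44976 and 45433 at clonal expansion (-3.76 ± 0.16). These 3 genes were lower in both differentiation libraries. Mcm2, another subunit, had 7049.6 and 7024 in differentiated cells, against 46684 and 46637 at clonal expansion (-2.73 ± 0.13). Pcna, the sliding clamp, had 3539.99 and 3624 in differentiated cells, against 27148 and 24819 at clonal expansion (-2.86 ± 0.14). For Rrm2, Mcm2 and Pcna both clonal expansion libraries lay above all 6 others, and proliferating cells had 18944 and 25175 for Mcm2 and 11169 and 18654 for Rrm2. The pair that rose were Brca1, of DNA repair (12336 and 12739 in differentiated cells, against 6872 and 7761 at clonal expansion, log2FC 0.78 ± 0.16, adjusted p = 0.00161), and Rpa3, of the single-strand binding complex (3258 and 3015 in differentiated cells, against 1952 and 1619.8 at clonal expansion, 0.82 ± 0.14). Brca1 was higher at day 6 than in proliferating cells as well, which had 4495 and 6173.

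Genes of mitosis and G2/M fell in 82 of 89 tested among 91 written, none rose, and the median was -1.50. Top2a, the topoisomerase that untangles chromosomes, had 7834 and 6641 in differentiated cells, against 62427 and 56193 at clonal expansion (log2FC -3.04 ± 0.16, adjusted p = 1.12e-07). Mki67, the proliferation antigen Ki-67, had 6162 and 4998 in differentiated cells, against 14629 and 12322 at clonal expansion (-1.27 ± 0.16). In both genes the libraries of the stages did not overlap. Cdk1, the kinase of mitotic entry, had 3701 and 3147 in differentiated cells, against 9560.4 and 8588 at clonal expansion (-1.41 ± 0.19). Its cyclin Ccnb1 had 1255 and 1118 in differentiated cells, against 2455 and 1825 at clonal expansion (log2FC -0.84 ± 0.22, adjusted p = 0.00629), a call lost without the second differentiation or the first clonal expansion library. At 10 h Mki67 was below its values in proliferating cells, 37134 and 51212, and overlapped its quiescent values, 14127 and 14537. Ccnb1 was likewise highest in proliferating cells, with 4545 and 6824, whereas Top2a was highest at clonal expansion.

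**Figure D3:**
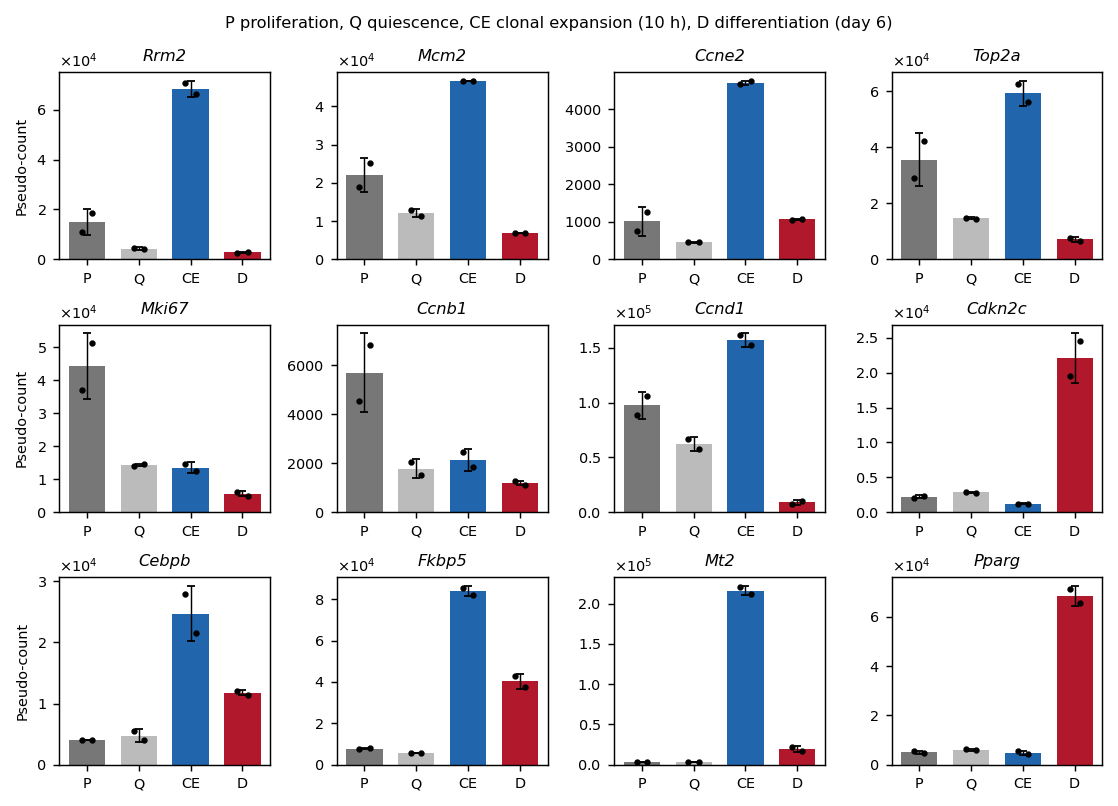
Pseudo-counts of 12 genes at the 4 stages in the order of the experiment (P, proliferation, Q, quiescence, CE, clonal expansion, D, differentiation). Bars are means of 2 libraries, error bars are SD and points are the libraries. Rrm2, Mcm2, Ccne2, Top2a and Ccnd1 peak at clonal expansion, Mki67 and Ccnb1 at proliferation, and Cdkn2c and Pparg at differentiation.

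Regulators of the cell cycle at the G1 boundary did not move as a block: of 32 genes, 13 rose (40.6%) and 12 fell (37.5%). Over all genes tested, 36.8% rose and 36.2% fell. Ccnd1, cyclin D1, had 7113 and 10551 in differentiated cells, against 161159 and 152405 at clonal expansion (log2FC -4.18 ± 0.18, adjusted p = 2.33e-08). Ccnd3 had 28782 and 24939 in differentiated cells, against 56369 and 52772 at clonal expansion (-1.03 ± 0.12), and Ccnd2 rose slightly (207207 and 217202 in differentiated cells, against 166682 and 172559.7 at clonal expansion, log2FC 0.32 ± 0.11, adjusted p = 0.0248). The call for Ccnd2 was lost on leaving out any 1 of the 4 libraries. Ccne2, an E cyclin, had 1063 and 1072 in differentiated cells, against 4655 and 4734 at clonal expansion (-2.14 ± 0.21). The inhibitors of cyclin-dependent kinases were mixed. Cdkn2c, or p18, had 19570.2 and 24587 in differentiated cells, against 1222 and 1131 at clonal expansion (log2FC 4.22 ± 0.13, adjusted p = 4e-09), and Cdkn1c, or p57, was low and rose (40.7 and 48.2 in differentiated cells, against 0 and 1.15 at clonal expansion, 4.95 ± 0.48). Cdkn1a, or p21, was not called (40178 and 41209 in differentiated cells, against 39937 and 32568 at clonal expansion, adjusted p = 0.23, 95% interval of the log2FC -0.10 to 0.45), and neither was Cdkn1b, or p27 (6864 and 6819 in differentiated cells, against 5782 and 6117 at clonal expansion, adjusted p = 0.0872, interval -0.02 to 0.42). For p21 and p27 both differentiation libraries lay above both clonal expansion libraries, but 88.4% of all genes tested showed such a lack of overlap in either direction. Rbl2, the p130 pocket protein of resting cells, rose (9404 and 8848 in differentiated cells, against 4251 and 4463 at clonal expansion, 1.07 ± 0.11). Of Myc, which drives growth, and its network, 4 rose and 4 fell of 11 tested (36.4% each, near the shares of all genes). Myc had 10325 and 11533 in differentiated cells, against 31529 and 30707 at clonal expansion (-1.51 ± 0.20). Of its antagonists, Mxi1 (15295 and 10114 in differentiated cells, against 2446 and 1957 at clonal expansion, 2.51 ± 0.19) and Mxd4 (18701 and 18919 in differentiated cells, against 9123 and 8223 at clonal expansion, 1.12 ± 0.12) rose, whereas Mxd3 (199.7 and 183 in differentiated cells, against 829.6 and 679.98 at clonal expansion, -1.97 ± 0.22) and Mnt (4303 and 5089 in differentiated cells, against 6618 and 7115 at clonal expansion, -0.55 ± 0.13) fell.

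Ribosome biogenesis genes were lower at day 6 nearly throughout: 65 of 66 tested fell, none rose, and the median was -1.58. Nop56, of the particle that methylates ribosomal RNA, had 7753 and 9532 in differentiated cells, against 71794 and 65334 at clonal expansion (log2FC -2.99 ± 0.16, adjusted p = 9.08e-08). Ncl, nucleolin, had 46722 and 54130.4 in differentiated cells, against 330466 and 325687 at clonal expansion (-2.71 ± 0.16). At day 6 Ncl was below its quiescent values of 69455 and 61832, while Nop56 overlapped its own, 8422 and 7564.

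The promoters of 3 of the genes that fell are shown because mitotic genes are known to carry a CHR element (TTTGAA) near CCAAT boxes bound by NF-Y, and DNA synthesis genes an E2F site. Of the 74 mitotic genes with a promoter in the RefSeq table, 35.1% held TTTGAA within 250 bases before the start, against 16.3% of all 27025 promoters. CCAAT was in 67.6% of the mitotic promoters and 34.5% of all promoters. In the last 100 bases the shares were 25.7% against 5.91% for TTTGAA and 56.8% against 19.6% for CCAAT. E2F sites (TTTCCCGC or TTTGGCGC) were in 6.76% of the mitotic promoters and 1.35% of all. Of the 59 ribosome biogenesis genes with a promoter, 8.47% held TTTGAA and 37.3% held CCAAT. Over the lists searched, the share with CCAAT ran from 20% (growth factors and receptors) to 75% (protein folding). It was also high in lists that mostly rose, at 64.7% (clock), 60.9% (citric acid cycle) and 55% (fatty acid synthesis). A high share was thus not particular to genes that fell. The share with TTTGAA was highest in the mitotic list, and at most 17.4% (citric acid cycle) in the other lists searched. Lists with a promoter for under 80% of their tested members were left out of these shares. The DNA synthesis list was among them, with 54 of 69, so no E2F share is given for it. The 27025 promoters include genes not tested here. No 2 motifs overlap in the sequences shown. Both strands were read, so that ATTGG marks a CCAAT box and TTCAAA a CHR element on the other strand. The last 150 bases before the start follow, with these motifs in capitals (GRCm38.p6): Top2a at chr11:99024190-99024339 (minus strand), Cdk1 at chr10:69352913-69353062 (minus strand) and Cdc6 at chr11:98908001-98908150 (plus strand).
Top2a: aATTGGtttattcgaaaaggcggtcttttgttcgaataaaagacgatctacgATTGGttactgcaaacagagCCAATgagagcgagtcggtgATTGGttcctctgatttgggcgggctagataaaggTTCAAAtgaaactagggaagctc
Cdk1: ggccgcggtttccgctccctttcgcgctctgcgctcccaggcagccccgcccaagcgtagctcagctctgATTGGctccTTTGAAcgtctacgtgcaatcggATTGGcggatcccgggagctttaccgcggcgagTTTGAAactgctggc
Cdc6: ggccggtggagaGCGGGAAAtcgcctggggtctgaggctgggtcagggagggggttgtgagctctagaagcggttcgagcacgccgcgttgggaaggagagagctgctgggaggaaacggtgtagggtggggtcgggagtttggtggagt
Top2a held 4 CCAAT boxes and its CHR element began 23 bases before the start, while Cdk1 held CHR elements beginning 71 and 15 bases before it. Cdc6 held 1 E2F site, on the other strand. The log2FC of these genes was -3.04 for Top2a, -1.41 for Cdk1 and -3.84 for Cdc6. A match is a description of these letters, not a site shown to be bound.

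Genes that answer to cyclic AMP were more often lower at day 6, with 25 of 41 tested down and 12 up (median -1.40). Isobutylmethylxanthine and dexamethasone had both been withdrawn by then, and their part was not tested. Ereg, epiregulin, a ligand of the EGF receptor, had 346 and 353 in differentiated cells, against 14149 and 15617 at clonal expansion (log2FC -5.41 ± 0.27, adjusted p = 6.99e-08). Bdnf, a neurotrophin, had 519 and 443 in differentiated cells, against 6892 and 6672 at clonal expansion (-3.82 ± 0.16). The orphan receptor Nr4a3 had 17.2 and 12.4 in differentiated cells, against 215 and 194 at clonal expansion (-3.72 ± 0.38). These 3 genes were lower in both differentiation libraries, without overlap. The phosphodiesterases, which isobutylmethylxanthine inhibits, split. Pde4b had 5649 and 5259 in differentiated cells, against 15090.2 and 13734 at clonal expansion (-1.40 ± 0.15). Pde4d had 11483 and 8632 in differentiated cells, against 17422 and 16645 at clonal expansion (-0.77 ± 0.13). Pde3b, through which insulin restrains lipolysis in fat, had 29654 and 26419 in differentiated cells, against 1031 and 1047 at clonal expansion (log2FC 4.75 ± 0.12, adjusted p = 1.23e-09). Crem, a repressor induced by cyclic AMP, was not called (963 and 787 in differentiated cells, against 733 and 651 at clonal expansion, adjusted p = 0.104, 95% interval of the log2FC -0.05 to 0.72).

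Glucocorticoid targets went both ways, with 17 up (42.5%) and 16 down (40%) of 40 tested, against 36.8% and 36.2% of all genes tested. Fkbp5, a sensor of glucocorticoid action, had 42768 and 37687 in differentiated cells, against 85567 and 82102 at clonal expansion (log2FC -1.06 ± 0.10, adjusted p = 4.49e-06). Tsc22d3, or GILZ, had 19952 and 22137 in differentiated cells, against 67822 and 70571 at clonal expansion (-1.72 ± 0.12). Fkbp5 at day 6 remained above its quiescent values of 5688 and 5563. The metallothioneins fell, with Mt1 at 41702 and 38092 in differentiated cells, against 268621 and 270434 at clonal expansion (-2.76 ± 0.14) and Mt2 at 21878 and 16648 in differentiated cells, against 220129 and 212264 at clonal expansion (-3.50 ± 0.14). Il1rl1, the receptor of interleukin 33, fell furthest (104 and 65.3 in differentiated cells, against 14991 and 16043 at clonal expansion, -7.54 ± 0.31). Higher at day 6 were Hsd11b1, which makes active glucocorticoid inside fat cells (71045 and 61126 in differentiated cells, against 457 and 289.9 at clonal expansion, 7.50 ± 0.21), Lpin1, of triglyceride synthesis (104268 and 116102 in differentiated cells, against 1662 and 1503 at clonal expansion, 6.12 ± 0.13), and Zbtb16 (15311 and 17999 in differentiated cells, against 5556 and 7177 at clonal expansion, 1.39 ± 0.30).

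Immediate early genes, tested 28 in all, fell in 15 and rose in 7, and 4 rose on leaving out either differentiation library or the second clonal expansion library. Ctgf had 9.53 and 15.4 in differentiated cells, against 598 and 639 at clonal expansion (-5.56 ± 0.51). Cyr61 had 1410.4 and 1610.2 in differentiated cells, against 26659.5 and 26202 at clonal expansion (-4.13 ± 0.46). Both encode matrix-associated growth regulators. In the 2 proliferation libraries Ctgf had 817 and 3318 and Cyr61 had 26862 and 105613. That difference enters the standard errors of both, because all stages share the estimate of spread. Fos was not called (622 and 466 in differentiated cells, against 1404 and 1509 at clonal expansion, adjusted p = 0.198), and the proliferation libraries, which share the estimate of spread, had 1176 and 19843. Without either of them, or in the 4 libraries alone, the fall of Fos passed the test.

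Matrix genes differed by class. Collagens split, with 12 up (37.5%) and 13 down (40.6%) of 32 tested (7 and 8 with no filter on low values). Those shares are near the 36.8% and 36.2% of all genes tested. Col4a1 and Col4a2, the common chains of basement membrane collagen, were both lower at day 6. Col4a1 had 718138 and 784781 in differentiated cells, against 1715616 and 1672252 at clonal expansion (log2FC -1.17 ± 0.14, adjusted p = 2.5e-05). Col4a2 had 496294 and 507423 in differentiated cells, against 1030513 and 1020494 at clonal expansion (-1.03 ± 0.12). Col4a1 remained above quiescent cells, which had 299883 and 307167. Col15a1, a collagen that links basement membranes to the matrix, rose (64371 and 63381 in differentiated cells, against 7695 and 7773 at clonal expansion, log2FC 3.05 ± 0.13, adjusted p = 2.06e-08). Col12a1, a fibril-associated collagen, fell (6988 and 8964 in differentiated cells, against 88031 and 114828 at clonal expansion, -3.67 ± 0.21), and Col3a1 was not called (817290.1 and 980873 in differentiated cells, against 1028242 and 881754 at clonal expansion, adjusted p = 0.675, 95% interval of the log2FC -0.49 to 0.32).

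Basement membrane genes also split, with 12 up and 12 down of 27 (44.4% each, against 36.8% up and 36.2% down over all genes tested). The laminin chains moved apart. Lama5 had 819 and 522 in differentiated cells, against 10339.8 and 9376 at clonal expansion (-3.91 ± 0.20). Lama4 had 93541 and 90054 in differentiated cells, against 45262 and 42654 at clonal expansion (1.06 ± 0.13). Lamb3 had 5028 and 4029 in differentiated cells, against 31 and 40.3 at clonal expansion (6.95 ± 0.24). Lama5 was thus lower, and Lama4 and Lamb3 higher, in both differentiation libraries. The laminin receptors Itga7 (12119.7 and 8596 in differentiated cells, against 185 and 158 at clonal expansion, 5.89 ± 0.21) and Itga6 (73099 and 71978 in differentiated cells, against 9005 and 9389.7 at clonal expansion, 2.98 ± 0.12) rose. Other matrix proteins fell in 28 of 53 and rose in 9. Vcan, the proteoglycan versican, had 174545 and 194668 in differentiated cells, against 1163645 and 1336174 at clonal expansion (-2.76 ± 0.21). Fbn1, fibrillin, had 24076 and 28756 in differentiated cells, against 264334 and 273835 at clonal expansion (-3.35 ± 0.12). Tnc, tenascin C, had 3209.9 and 2215 in differentiated cells, against 26747 and 26535 at clonal expansion (-3.32 ± 0.16). Prelp, a leucine-rich proteoglycan, rose (41682 and 40560 in differentiated cells, against 4067 and 3073 at clonal expansion, 3.54 ± 0.16).

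Of the 47 remodelling genes tested, 27 fell (57.4%) and 15 rose (31.9%), against 36.2% and 36.8% of all genes tested. With no filter on low values, 9 rose. The inhibitors of metalloproteinases separated. Timp1 had 1401 and 1341 in differentiated cells, against 38972 and 35060.1 at clonal expansion (log2FC -4.75 ± 0.17, adjusted p = 8.97e-09). Timp3 had 253 and 265 in differentiated cells, against 8481 and 9998 at clonal expansion (-5.15 ± 0.13). Both of these inhibitors were lower in both differentiation libraries. Timp4 had 5150.1 and 4867 in differentiated cells, against 75.9 and 46.6 at clonal expansion (log2FC 6.37 ± 0.33, adjusted p = 8.46e-08). Lox, which crosslinks collagen, had 46697 and 56405 in differentiated cells, against 188115 and 190329.9 at clonal expansion (-1.88 ± 0.15). Mmp2 had 101394 and 117311 in differentiated cells, against 292649.6 and 262842 at clonal expansion (-1.35 ± 0.18).

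Genes of the actin cytoskeleton and of the factors SRF and YAP fell in 37 of 51 tested and rose in 8. Acta2, smooth muscle actin, had 1639 and 2416 in differentiated cells, against 63633 and 70349 at clonal expansion (log2FC -5.07 ± 0.18, adjusted p = 6.94e-09). Tagln, transgelin, had 439.8 and 538 in differentiated cells, against 4517 and 5276 at clonal expansion (-3.32 ± 0.19). Acta2 was already lower at 10 h than in quiescent cells, which had 110560.3 and 98994. Des, the muscle filament desmin, moved against the list (5571 and 4992 in differentiated cells, against 230.1 and 136 at clonal expansion, 4.89 ± 0.25).

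Signalling by the canonical Wnt pathway is known to oppose fat cell formation. The list covers Wnt signalling in general, with ligands, receptors, antagonists and targets, and 22 genes fell and 9 rose of 39 tested among 50 written. The ligand Wnt4 had 207 and 217 in differentiated cells, against 25986 and 22963 at clonal expansion (log2FC -6.84 ± 0.13, adjusted p = 4.93e-10). Wnt11 had 9.47 and 9.27 in differentiated cells, against 736 and 622 at clonal expansion (-6.03 ± 0.27). Wisp2, a secreted target of the pathway, had 1577 and 1544 in differentiated cells, against 31455 and 24862 at clonal expansion (-4.16 ± 0.23). The ligands and the target were lower in both differentiation libraries. Dkk2, a secreted antagonist, had 243 and 238 in differentiated cells, against 0.922 and 2.33 at clonal expansion (6.58 ± 0.34), although quiescent cells also had 416 and 370.2. In the TGF-beta and BMP pathway, 23 of 46 fell (50%) and 12 rose (26.1%), against 36.2% and 36.8% of all genes tested. The activin subunits moved apart. Inhba had 159 and 135 in differentiated cells, against 4170.4 and 4764 at clonal expansion (log2FC -4.92 ± 0.23, adjusted p = 4.79e-08). Inhbb had 6994 and 5307 in differentiated cells, against 792 and 726 at clonal expansion (log2FC 3.00 ± 0.14, adjusted p = 4.05e-08). Acvr1c, the receptor ALK7 of fat tissue, was low and rose (44.6 and 55.1 in differentiated cells, against 1.86 and 3.52 at clonal expansion, 3.81 ± 0.60). The BMP antagonist Grem1 fell (150.4 and 91.7 in differentiated cells, against 4839 and 4092 at clonal expansion, -5.23 ± 0.20), and the ligand Gdf5 rose (4684 and 4491 in differentiated cells, against 60.4 and 51 at clonal expansion, 6.34 ± 0.20).

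Growth factors and receptors fell in 22 of 43 (51.2%) and rose in 14 (32.6%), against 36.2% and 36.8% of all genes tested. Hbegf had 76.7 and 71 in differentiated cells, against 1504 and 1368 at clonal expansion (-4.26 ± 0.25). This ligand of the EGF receptor did not overlap between the stages. Fgf7 had 1708 and 1609 in differentiated cells, against 18555 and 17872 at clonal expansion (-3.46 ± 0.11). Fgf1 had 862 and 890.2 in differentiated cells, against 3.82 and 0.0864 at clonal expansion (8.58 ± 0.59). Igf1r, the receptor of insulin-like growth factors, fell (8469 and 8804 in differentiated cells, against 15837 and 18914 at clonal expansion, -1.0 ± 0.15) as Insr rose.

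Imprinted genes, expressed from 1 parental copy, are the subject of the series, and they went both ways. Of 65 tested among 83 written, 30 rose (46.2%) and 19 fell (29.2%), against 36.8% and 36.2% of all genes tested. The largest falls on the list were Htr2a, Peg12, H19 and Dlk1. H19, a noncoding RNA, had 357 and 594 in differentiated cells, against 4733 and 6794 at clonal expansion (log2FC -3.62 ± 0.26, adjusted p = 8.34e-07). Its neighbour Igf2 had 69026 and 94462 in differentiated cells, against 40685 and 49681 at clonal expansion (log2FC 0.84 ± 0.18, adjusted p = 0.00179). Peg12 had 143 and 184 in differentiated cells, against 3362 and 3446 at clonal expansion (-4.38 ± 0.19). H19 and Peg12 were lower, and Igf2 higher, in both differentiation libraries. Mest, tied to fat cell size in mice, rose (5117 and 4662 in differentiated cells, against 1399.8 and 821 at clonal expansion, 2.19 ± 0.25), as did Peg10 (75169 and 47732 in differentiated cells, against 23118 and 25262 at clonal expansion, 1.31 ± 0.20). Igf2as rose (989 and 817 in differentiated cells, against 48.2 and 38.5 at clonal expansion, 4.35 ± 0.28), but it overlaps Igf2 on the other strand and reads of an unstranded library cannot be told apart between them. Plagl1 was not called (286 and 546 in differentiated cells, against 347 and 278 at clonal expansion, adjusted p = 0.283, 95% interval of the log2FC -0.27 to 0.97).

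Clock genes rose in 12 of 20 and fell in 4. Rora, a receptor that activates the clock gene Bmal1, had 4222 and 4218 in differentiated cells, against 176 and 237 at clonal expansion (4.36 ± 0.41). Npas2, a relative of Clock, had 1847 and 1978 in differentiated cells, against 2.8 and 4.7 at clonal expansion (8.68 ± 0.34). The period genes split, Per3 with 9637 and 8159 in differentiated cells, against 1063 and 1182 at clonal expansion (2.98 ± 0.13) and Per1, which glucocorticoids induce, with 16176 and 14763 in differentiated cells, against 24724 and 27829 at clonal expansion (-0.76 ± 0.11). The 2 stages were taken at 10 h and at 6 days, and the labels do not give the time of day.

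Inflammatory genes were more often lower, 29 of 48 tested against 14 higher. Il11 had 62.7 and 60.8 in differentiated cells, against 5306 and 5222 at clonal expansion (-6.39 ± 0.23). Cxcl5 had 249 and 329 in differentiated cells, against 7517 and 7361 at clonal expansion (-4.70 ± 0.19). Hp, haptoglobin, rose (219539 and 226632 in differentiated cells, against 3831 and 1751 at clonal expansion, 6.43 ± 0.32), and so did Steap4, a metalloreductase of fat (7678 and 8923 in differentiated cells, against 23.6 and 19.3 at clonal expansion, 8.53 ± 0.41). Interferon-response genes were more often higher, 32 of 47 tested against 4 lower. Under quantile normalization 21 rose, and the number lower ran from 1 to 7 over the alternatives. Gbp2, a guanylate-binding protein, had 1627 and 2187 in differentiated cells, against 73.2 and 70.7 at clonal expansion (4.69 ± 0.20). Usp18 had 878 and 1059 in differentiated cells, against 58.2 and 51.1 at clonal expansion (4.12 ± 0.29). Clonal expansion was the lowest of the 4 stages for both, and quiescent cells had 2241 and 2181 for Gbp2 and 335 and 363 for Usp18.

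Of 32 genes of protein folding in the endoplasmic reticulum, 18 fell (56.25%) and 10 rose (31.25%), against 36.2% and 36.8% of all genes tested. Among those that fell were the chaperone Hyou1 (21740.1 and 21554 in differentiated cells, against 90269 and 100007 at clonal expansion, log2FC -2.13 ± 0.10, adjusted p = 4.13e-08), Manf (-1.81 ± 0.11) and Pdia3 (-1.40 ± 0.12). Ero1l, the oxidase that supports disulfide formation, rose (249037 and 127391 in differentiated cells, against 9747 and 10425 at clonal expansion, log2FC 4.14 ± 0.25, adjusted p = 2.36e-07), and Dnajb9 (1.65 ± 0.10) and Herpud1 (1.59 ± 0.11) rose with it. Genes of amino acid supply split, with 18 up (36%) and 22 down (44%) of 50, against 36.8% and 36.2% of all genes tested. Trib3 had 20882 and 13004 in differentiated cells, against 1828 and 1634 at clonal expansion (3.25 ± 0.19). The glutamine transporter Slc38a1 had 121.8 and 77.2 in differentiated cells, against 1607 and 1689 at clonal expansion (-4.07 ± 0.21). Ero1l, Trib3 and Ddit3 were all higher in the first differentiation library than in the second, and both libraries lay above clonal expansion. Antioxidant and detoxification genes rose in 25 of 48 (52.1%) and fell in 15 (31.25%), against the same 36.8% and 36.2%. Ephx2, an epoxide hydrolase, had 19265 and 22038 in differentiated cells, against 1205 and 1013 at clonal expansion (4.22 ± 0.17). Gclc, of glutathione synthesis, had 3293 and 3608 in differentiated cells, against 26931 and 25253 at clonal expansion (-2.92 ± 0.14).

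**Figure D4:**
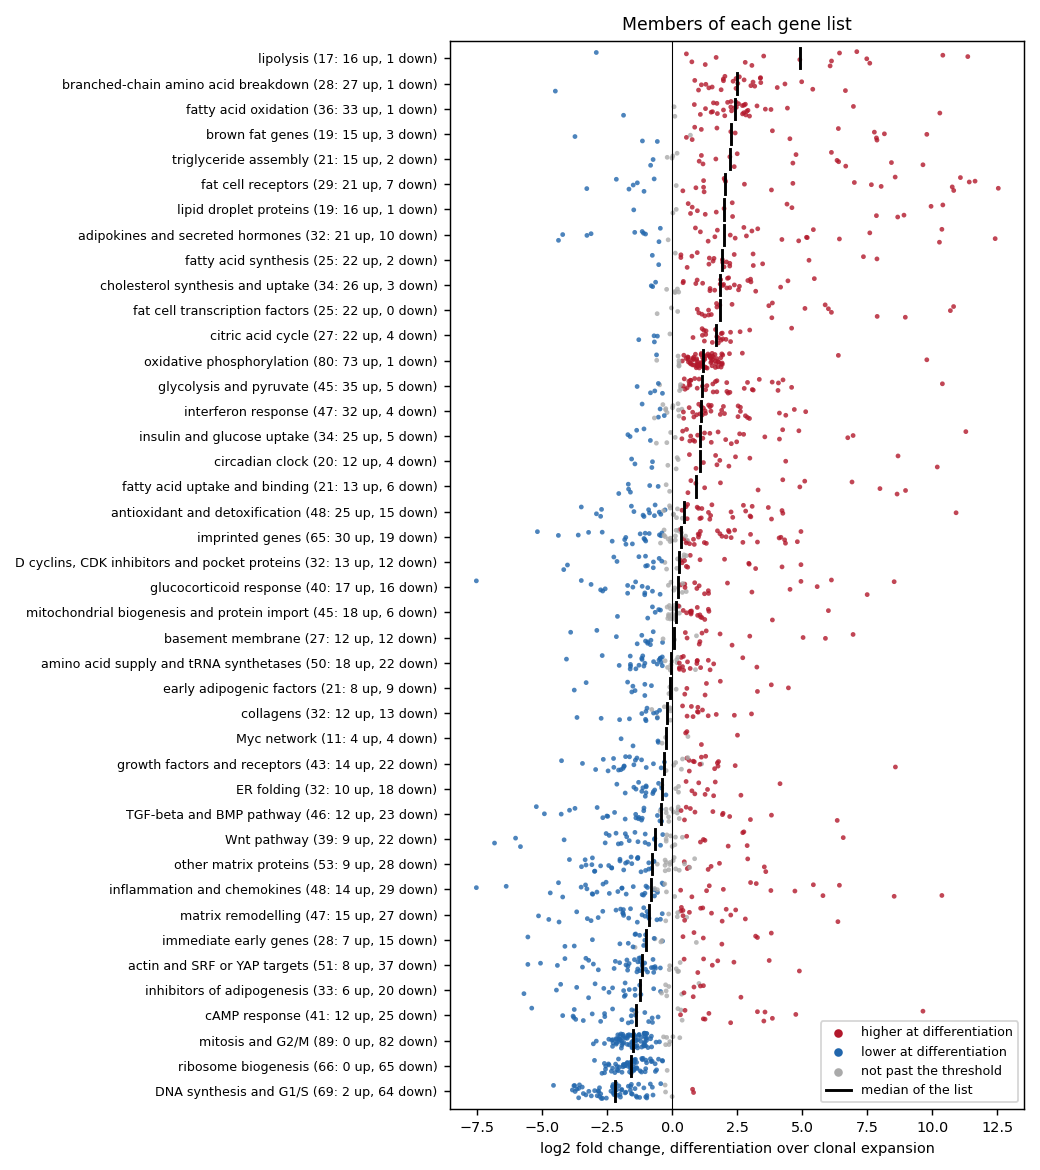
Each point is a tested member of the gene list in its row, on the log2 fold change of differentiation over clonal expansion, with red for higher, blue for lower and grey for not past an adjusted p of 0.05. Black bars are list medians, which run from -2.21 (DNA synthesis and G1/S) to 4.91 (lipolysis), and the row labels give the number tested and called.

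The largest single changes included genes of the lists above and genes outside them. The gene with the highest log2FC was 4632428N05Rik, named Vsir in RefSeq, an immune checkpoint receptor, at mm9 chr10:59809599-59835432, with 20016 and 17517 in differentiated cells, against 0.749 and 3.46 at clonal expansion (log2FC 12.71 ± 0.37, adjusted p = 2.69e-09). Pnpla3, a lipase relative on the lipolysis list, had 62656 and 68224 in differentiated cells, against 21.6 and 26.1 at clonal expansion (11.37 ± 0.30). Lgals12, a galectin of fat cell droplets, had 30567 and 28049.6 in differentiated cells, against 10.8 and 10.3 at clonal expansion (11.31 ± 0.24). Neither of these lipid-linked genes exceeded 26.1 at clonal expansion. The noncoding RNA 4930511E03Rik had 3784 and 5290.5 in differentiated cells, against 0.95 and 0.0221 at clonal expansion. The largest fall was Pip, a secreted protein induced by prolactin, at mm9 chr6:41797548-41802061, with 2.13 and 4.11 in differentiated cells, against 9166 and 11492 at clonal expansion (log2FC -11.33 ± 0.62, adjusted p = 1.19e-07). Ramp3, a partner of calcitonin-family receptors, had 39.6 and 30.4 in differentiated cells, against 24309 and 19609 at clonal expansion (log2FC -9.26 ± 0.36, adjusted p = 1.41e-08). Both were abundant in each clonal expansion library and below 40 in each differentiation library. Tll1, a metalloproteinase, had 44.8 and 47.7 in differentiated cells, against 9775 and 8849 at clonal expansion (-7.62 ± 0.15). Krt16, a keratin, had 1.09 and 4.78 in differentiated cells, against 1222 and 1150.1 at clonal expansion (-8.41 ± 0.51). Pip, Ramp3 and Krt16 were also low in quiescent cells, with 3.76 and 0.876 for Pip, 30.0 and 11.8 for Ramp3 and 10.6 and 4.52 for Krt16, so clonal expansion stood apart from that stage as well as from day 6. H2-M9 and Vgf were at or under 3 in both differentiation libraries, with 0.00644 and 1.03 in differentiated cells, against 634 and 605 at clonal expansion for H2-M9 and 2.09 and 1.04 in differentiated cells, against 638 and 728 at clonal expansion for Vgf. H2-M1 was listed at 0 to 2 decimals at differentiation and had 457 and 442 at clonal expansion, and reads of these H2 genes may be split with close relatives.

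Genes with at least 200 in both differentiation libraries and at most 3 in both clonal expansion libraries numbered 62, and 3 genes showed the opposite. Several are known from liver or muscle. Gys2, the liver glycogen synthase, had 756 and 833 in differentiated cells, against 1.91 and 0.0438 at clonal expansion. Cyp2e1, a cytochrome of liver, had 486 and 535 in differentiated cells and was listed at 0 in both clonal expansion libraries. Hpd, of tyrosine breakdown in liver, had 1021 and 905 in differentiated cells and was likewise listed at 0. Apoc4, an apolipoprotein, had 1058 and 1134 in differentiated cells and was listed at 0 at clonal expansion. Mb, the oxygen store of muscle, had 1023 and 1234 in differentiated cells, against 2.85 and 0.702 at clonal expansion, and Nos3, the nitric oxide synthase of endothelium, had 414 and 626 in differentiated cells, against 1.9 and 0.448 at clonal expansion. Krt18, a keratin of simple epithelia, had 1711 and 801 in differentiated cells, against 0.95 and 0.0221 at clonal expansion, and its partner Krt8 had 107 and 55.1 in differentiated cells, against 1.87 and 2.38 at clonal expansion (4.64 ± 0.51). Against them, Krt15 fell (244 and 118 in differentiated cells, against 8095 and 9777 at clonal expansion, -5.70 ± 0.29) alongside Krt16.

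Pairs of related genes were written down with earlier results known, and several pairs share a gene, so that their counts are a description. Of 59 pairs, both members of 56 were tested, and in 24 one member rose and the other fell, while 20 pairs rose together and 3 fell together. The branched-chain aminotransferases and the metalloproteinase inhibitors described above are among them. In signalling, Prkar1a, the common regulatory subunit of protein kinase A, fell (38468 and 40840.5 in differentiated cells, against 59985 and 55909.6 at clonal expansion, -0.55 ± 0.10) and Prkar2b, the subunit of fat and brain, rose (57471 and 54305 in differentiated cells, against 12350.1 and 11263 at clonal expansion, 2.24 ± 0.11). In glucose phosphorylation, Hk1 fell (15018 and 12450.4 in differentiated cells, against 18792 and 16841 at clonal expansion, -0.38 ± 0.12) and Hk2, the insulin-responsive form, rose (72584 and 61611 in differentiated cells, against 23079.7 and 22333 at clonal expansion, 1.56 ± 0.12). The fall of Hk1 was lost without the second differentiation or the first clonal expansion library. In lactate transport, Slc16a3 rose (845 and 593 in differentiated cells, against 199 and 251 at clonal expansion, 1.66 ± 0.21) and Slc16a1 fell (14987 and 13999.9 in differentiated cells, against 24407 and 21906 at clonal expansion, -0.67 ± 0.12). Among translocases of adenine nucleotides, Slc25a5 rose (0.72 ± 0.14) and the heart form Slc25a4 fell (-0.76 ± 0.14).

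**Figure D5:**
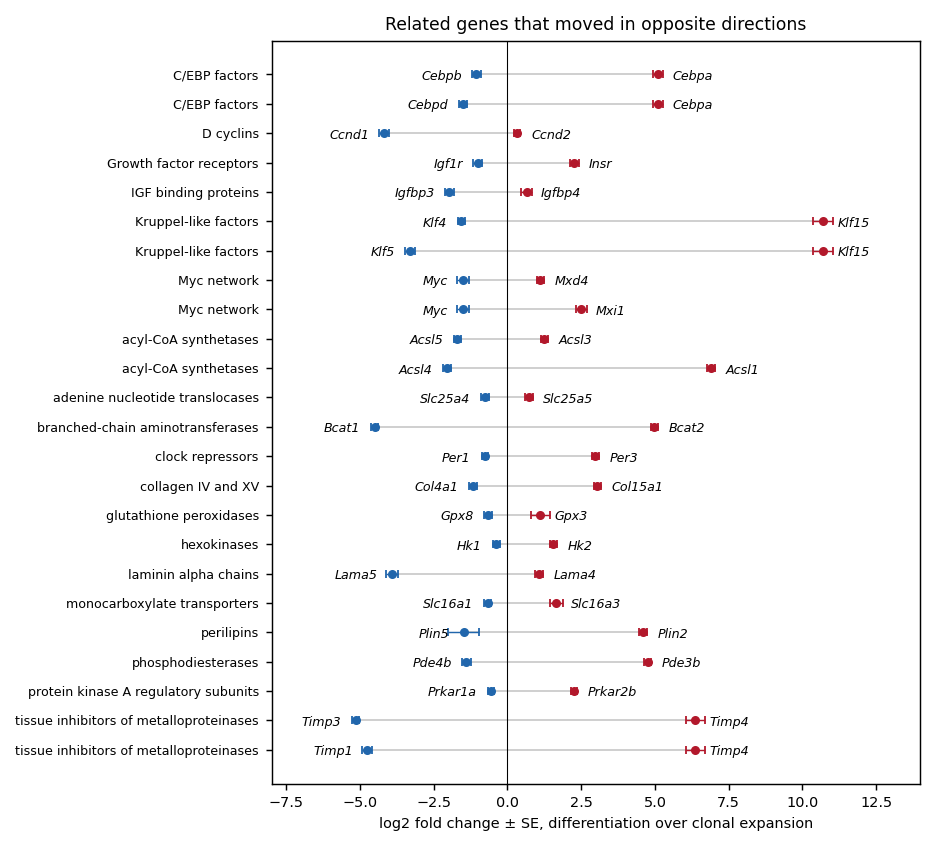
Each row is a pair of related genes, with the log2 fold change of differentiation over clonal expansion on the x axis, error bars of 1 standard error and red for genes that rose and blue for genes that fell. The 24 pairs with opposite calls are shown. The widest gaps are Klf5 with Klf15 and Klf4 with Klf15, and the narrowest are Slc25a4 with Slc25a5 and Gpx8 with Gpx3.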

How the data were processed

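Total RNA of 3T3-L1 cells was extracted with Trizol and sequenced as unstranded TruSeq libraries with single reads of 100 nt, per the labels' protocols. CASAVA 1.8.2 and edgeR, with the mouse build mm9, are named in the submitters' processing notes, and the aligner and gene models are not given in the sources used here. The authors deposited 1 table of signal values: pseudo-counts per gene from edgeR's relative log expression scaling, not divided by gene length. They are not whole numbers, and no depth before scaling is known, so no count model was run.

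From that table log2(value + 1) was computed for the 14647 of 22798 genes that averaged 10 or more across the 8 libraries. limma 3.58.1 (R 4.3.3), with a mean-variance trend, was fitted to all 8 libraries with stage as the only term, and the 4 libraries of the other stages share the estimate of spread. P-values were adjusted over all genes tested (Benjamini-Hochberg), with a threshold of 0.05, and adjusted p-values in the text are from that fit. The script was tested on simulated data. Named genes were the 10 largest rises and falls, a written list, up to 4 leading members of each gene list per direction, and pair members. Others were the 10 genes with the largest share of pseudo-counts per stage, and genes at or under 3 at one stage and at least 200 at the other. The members, pairs and lists were chosen with earlier results of these data known, and no list was given a test of its own. Rows whose symbol was shared were tested but not named. Across genes, same-numbered differentiation and clonal expansion libraries deviated from their stage means with a correlation of 0.07. The numbers were not used as pairs in the main fit, and whether they mark pairs is not known. In all, 19 alternatives were run. Promoter sequences came from RefSeq on another build, GRCm38.p6, and were matched by gene, not by position. Some genes that the naming rule covers are not reported here.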

Additional observations from a re-analysis of the deposited data

How the results depend on the processing

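Over 19 alternatives, no gene called above was called with the other sign. Of the 10694 calls, 87.3% (without the first differentiation library) to 99.9% of those tested under an alternative were kept. With a mean of at least 100 required, 9266 of the calls were tested and 9260 kept. Without 1 library of any stage, 9419 to 11146 genes changed, 4741 to 5605 of them higher and 4642 to 5541 lower, and 3236 to 3423 were at least 2-fold higher and 2611 to 2740 at least 2-fold lower. The labels do not say whether the numbers pair the libraries. With a replicate block 10931 genes were called, against 10694 without it. On the 4 libraries compared alone, 11498 were called with the block and 11188 without it. Quantile normalization shifted the median of all genes to -0.12 and called 4709 higher and 5824 lower. Of 1862 list counts under alternatives, 1824 stayed within 1.5 times. The sign turned for 13 values, with no call under either setting. On leaving out 1 library, the log2FC ran from -0.22 to 0.043 for Col3a1, from -0.016 to 0.21 for Cpt1a, from -0.14 to 0.25 for Flt1, from -0.0020 to 0.045 for Rab18, from -1.08 to 0.11 for Gapdh, from -0.12 to 0.81 for Plagl1, from -0.087 to 1.5 for Malat1 and from -0.036 to 1.46 for Retnla. Under quantile normalization they were Crem (-0.023), Flt1 (-0.11), Gata3 (-0.42) and Plagl1 (-0.20). The cause was not tested. With no filter on low values the calls of Ccnb1, Ccnd2, Col1a2, Col6a3, Elovl6, Hk1, Krt19, Pkm2 and Plin5 were lost, and with quantile normalization those of Egfl7 and Pecam1 among the endothelial markers. Some genes not called passed the threshold under an alternative. These were Cd68, Cdkn1b and Col3a1 under quantile normalization, Cd68 on the 4 libraries alone and with no mean-variance trend, Crem with the block, Gapdh, Malat1 and Retnla with the block on the 4 libraries alone, Gapdh, Retnla and Gata3 (0.54) without the second differentiation library, and Plagl1 without the first. Cdkn1b also passed with the block on the 4 libraries alone and without either quiescence library. Fos passed on the 4 libraries alone, with or without the block, and without either proliferation library. With 2 libraries a stage, precision rests on the spread pooled over stages, and the depth before scaling is not known.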

Other observations

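A few genes differed between the 2 libraries of one stage and were picked after their values were seen. Of 11520 genes with a mean of at least 200 at differentiation, 18 were at least 2-fold higher in the first library and 11 in the second. Prl2c5, of the prolactin family, had 1327 and 414, and Nt5e, a nucleotidase that makes adenosine, had 1256 and 440.4. Retnla, a relative of resistin, had 2282 and 810, and the keratin Krt19 had 901 and 326. Gapdh had 3043 and 6956 and Rps12 had 547 and 1303, and both have many near-identical copies between which reads may be split. At clonal expansion 3 of 11052 genes were at least 2-fold higher in the first library and 9 in the second. Malat1, a nuclear noncoding RNA, had 58277 and 175438 there, and Hp, haptoglobin, had 3831 and 1751.

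Of 17 promoters of the clock genes described above, 5 (29.4%) held the E-box CACGTG within 250 bases before the start, against 6.05% of all promoters in the RefSeq table. In the last 100 bases the shares were 11.8% (2 promoters) and 3.18%. Over the other lists searched, the share within 250 bases ran from 0% (lipid droplet proteins) to 30% (Myc network, 3 of 10 promoters). CCAAT was in 75.0% of the promoters of the genes of protein folding in the endoplasmic reticulum, against 34.5% of all promoters. These are counts of letters over sets chosen with results known, and no test was made.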
